A study of Mus musculus with 21 samples.

Results

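Promoter flanks, the stretches from 1 to 3 kb on either side of a gene start, were followed through 4 comparisons of captured methylated DNA in mouse synovial fibroblasts. A flank was any listed region on chromosomes 1 to 19 that the authors' annotation places in this distance class, by the middle of the region. There were 1849 such regions among the 49307 regions listed in all. Of these, 474 came from Tg197 against WT at 3 weeks, 427 from Tg197 against WT at 8 weeks, 260 from Tg197 against WT at 11 weeks and 688 from TNF-treated against untreated WT at 8 weeks. They belonged to 1644 genes, and every one of them was analysed without a filter on low values.

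The cells, fibroblasts of the joint lining, were cultured from the arthritic strain Tg197, in which a human TNF gene is overexpressed, and from wild-type (WT) animals. There were 7 groups with 3 samples each (21 in all), namely Tg197 at 3, 8 and 11 weeks, WT cells of 8 weeks exposed to TNF, and untreated WT at 3, 8 and 11 weeks. All groups shared the CBA x C57BL/6J strain background and passages 4 to 5. The labels give neither the dose nor the duration of TNF. Nothing in the labels says that replicates came from separate mice, so p-values measure the spread between samples, which may be technical. Since the tables hold only regions that differed, the labelled cell type could not be checked against its markers.

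DNA methylation in mammals lies mostly on cytosines followed by guanine (CG sites). Many gene starts sit in CG-rich islands that stay unmethylated, and the DNA beside an island, its shore, is a place where methylation often differs between cell types and disease states. Upstream flanks lie outside the transcript, whereas downstream flanks usually lie in its first exons and introns. In MethylCap-seq a methyl-CG-binding protein captures methylated fragments, so the reads of a region follow both its methylation and its number of CG sites.

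The sequences below show how CG sites are spread around the starts of 5 genes on which the results turn. Each is the RefSeq window from 250 bases before to 50 bases after the start, in build GRCm38.p6, read 5′ to 3′ along the gene's strand, with CG sites in capitals. They are neighbours of the measured flanks and not the flanks themselves, which have mm9 coordinates. Eng (chr2:32646345-32646644, plus strand) has 6 CG sites in its window and had a listed upstream flank in 3 tables. Nfkbia (chr12:55492598-55492897, minus strand) has 15 and lost signal downstream at 3 weeks. Gna13 (chr11:109362544-109362843, plus strand) has 40, and its upstream flank moved in opposite directions at 3 and 8 weeks. Map3k1 (chr13:111808944-111809243, minus strand) has 55 and gained on both sides at 3 weeks. Mmp25 (chr17:23645220-23645519, minus strand) has 18 and lost on both sides after TNF. The motif searched was CG, which reads the same on both strands, and 94.6% of all RefSeq windows hold at least 1. The median over the 27025 genes with a window was 7 CG sites. Of the 1644 flank genes, 1280 (77.9%) matched a window, and the median over these was 16.8 CG sites. The windows of the other flank genes could not be read, so CG content is not compared between sets of flanks and that check is void.
Eng: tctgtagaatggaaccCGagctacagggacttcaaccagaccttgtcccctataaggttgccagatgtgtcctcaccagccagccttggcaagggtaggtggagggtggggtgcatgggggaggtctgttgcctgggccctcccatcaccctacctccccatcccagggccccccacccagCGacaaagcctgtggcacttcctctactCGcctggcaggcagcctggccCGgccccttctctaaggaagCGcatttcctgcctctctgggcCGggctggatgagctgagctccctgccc
Nfkbia: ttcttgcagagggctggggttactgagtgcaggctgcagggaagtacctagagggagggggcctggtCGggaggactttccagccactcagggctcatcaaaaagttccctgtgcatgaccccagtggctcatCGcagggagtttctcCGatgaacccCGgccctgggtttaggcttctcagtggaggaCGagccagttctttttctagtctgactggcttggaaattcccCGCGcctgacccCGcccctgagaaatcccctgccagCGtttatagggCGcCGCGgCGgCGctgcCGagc
Gna13: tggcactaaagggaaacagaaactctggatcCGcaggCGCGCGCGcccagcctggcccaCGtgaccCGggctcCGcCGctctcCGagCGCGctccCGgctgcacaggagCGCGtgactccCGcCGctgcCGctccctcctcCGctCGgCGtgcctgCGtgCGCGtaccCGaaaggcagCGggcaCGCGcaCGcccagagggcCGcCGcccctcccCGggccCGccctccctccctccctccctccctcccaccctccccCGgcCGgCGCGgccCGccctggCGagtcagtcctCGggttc
Map3k1: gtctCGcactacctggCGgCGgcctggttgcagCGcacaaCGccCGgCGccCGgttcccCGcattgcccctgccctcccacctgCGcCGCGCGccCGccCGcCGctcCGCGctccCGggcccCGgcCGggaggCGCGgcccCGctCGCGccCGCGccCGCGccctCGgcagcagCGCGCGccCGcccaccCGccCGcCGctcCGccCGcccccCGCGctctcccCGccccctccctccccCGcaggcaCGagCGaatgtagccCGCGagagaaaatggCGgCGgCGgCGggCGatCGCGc
Mmp25: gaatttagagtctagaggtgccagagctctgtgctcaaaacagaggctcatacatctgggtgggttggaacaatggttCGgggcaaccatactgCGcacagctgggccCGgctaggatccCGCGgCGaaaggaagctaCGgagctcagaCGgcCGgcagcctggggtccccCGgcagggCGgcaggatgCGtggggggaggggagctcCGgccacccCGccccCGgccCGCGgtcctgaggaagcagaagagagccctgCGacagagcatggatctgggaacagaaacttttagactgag

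Each table gives 1 normalized read value per library and region, and the recovered reads in listed regions ran from 385155 to 2875554 per library. The depth outside listed regions is unknown, and library numbers give positions in a table, not replicate numbers. TNF-treated libraries 1 and 2 held identical values in every region and were counted as 1 sample, so TNF-treated cells had n = 2 against n = 3. Regions were already selected by the authors for a difference, so each test was a retest, made with limma on log2(value + 1) within a table and adjusted over all its listed regions. Fold changes are Tg197 over WT or TNF-treated over untreated WT on that scale, each ± its standard error. The scale understates changes of regions with few reads. A flank is said to have gained or lost signal where the adjusted p was under 0.05. An alternative scaling by median ratios divided each library by its median ratio to the region means, taken over the listed regions only. As these regions were selected for a difference, it shifts a table against the direction in which most of its regions moved. It is therefore no independent check of the balance of gains and losses or of single calls. Adjusted instead over all windows that the authors had tested, no flank passed limma in any table, although 405, 316, 216 and 657 flanks had an unadjusted p under 0.05 at 3, 8 and 11 weeks and after TNF.

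**Figure D1:**
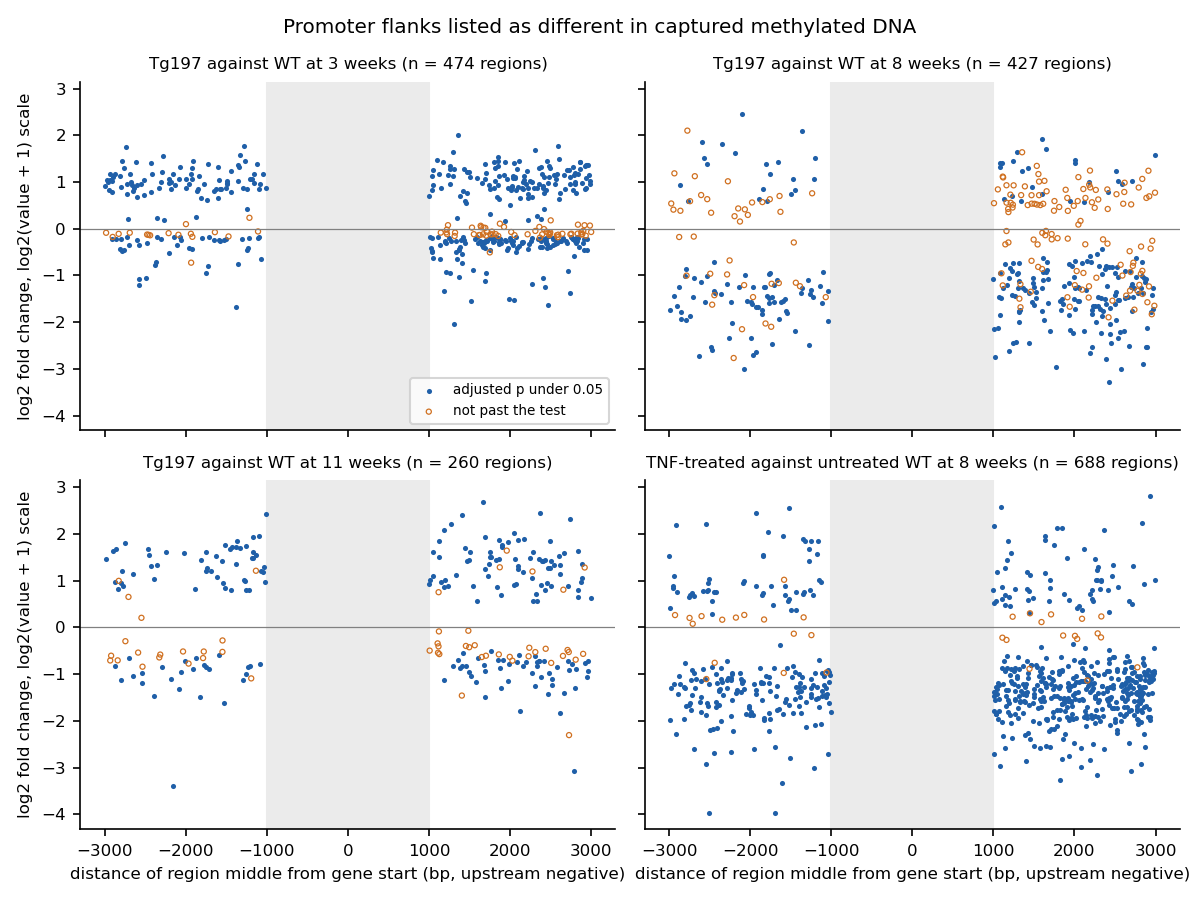
Limma log2 fold change of each listed promoter flank (log2(value + 1) scale) against the distance of its middle from the gene start in bp, upstream negative. Filled points passed the test, open points did not, and the grey band within 1 kb of the start holds no flanks. At 3 weeks gains sit near 1.00 and losses near -0.25, while after TNF most points lie below 0.

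At 3 weeks of age more flanks gained than lost captured methylated DNA in Tg197 fibroblasts. Of the 474 flanks, 227 gained and 174 lost signal, together 84.6%, against a background of 85.0% of all regions listed at this age. Gains made up 47.9% of the flanks, against 40.3% of all listed regions, and losses 36.7% against 44.7%. Groups did not overlap in 413 flanks (87.1%, against 86.1% of all listed regions). The gains were larger than the losses, with a median log2 fold change of 1.00 among flanks listed as gained and -0.25 among those listed as lost. Among all listed regions these medians were 0.99 and -0.26, so this was a trait of the whole table. A fold change of at least 1 on the log2 scale was reached by 122 gains and 16 losses. Among all 13125 listed regions it was reached by 2781 gains and 320 losses. In such bulk samples a change per cell and a change in the mix of cells cannot be told apart.

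Nfkbia, which encodes the inhibitor that holds NF-kB in the cytoplasm, stood among the 6 largest losses at 3 weeks. Its downstream flank (chr12:56591201-56592100 in mm9) had 17.3, 16.97 and 9.89 in Tg197 libraries, against 40.4, 40.7 and 45.4 in WT libraries. The 3 Tg197 libraries all lay below the lowest WT library, as the naming rule required, and the log2 fold change was -1.50 ± 0.27 (adjusted p = 0.0015). Pdgfd, a platelet-derived growth factor, had 8.64, 13.2 and 8.90 in Tg197 libraries, against 35.7, 28.1 and 36.4 in WT libraries in its downstream flank (-1.63 ± 0.28, adjusted p = 0.00146). Arid5a, an RNA-binding protein known to stabilise Il6 mRNA, had 6.94 ± 3.23 in Tg197 and 21.7 ± 6.69 in WT libraries (SD, n = 3 each), and Tsfm, a mitochondrial elongation factor, had 5.56 ± 3.01 in Tg197 and 18.4 ± 4.78 in WT libraries (SD, n = 3 each) in its upstream flank. Their log2 fold changes were -1.55 ± 0.37 and -1.67 ± 0.41. The largest loss, -2.04 ± 0.34, was downstream of Olfr769, an olfactory receptor gene, and 4930473A06Rik had -1.54 ± 0.36.

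The 6 largest gains at 3 weeks are named here. D630003M21Rik led with a log2 fold change of 2.01 ± 0.40 and 31.3, 33 and 20.8 in Tg197 libraries, against 4.69, 13.6 and 3.41 in WT libraries. Diablo, which encodes a mitochondrial protein that promotes apoptosis, had 19.4, 17.9 and 23.7 in Tg197 libraries, against 1.88, 7.24 and 9.09 in WT libraries in its upstream flank (1.77 ± 0.42, adjusted p = 0.00247). No Tg197 library of either gene overlapped with a WT library, as the naming rule required. Hif1an, an asparagine hydroxylase that restrains the hypoxia factor HIF1, averaged 28.4 ± 1.93 in Tg197 and 9.66 ± 6.41 in WT libraries (SD, n = 3 each) upstream of its start. Sec11a, a signal peptidase subunit, Wdr45l and the Golgi complex gene Cog3 gained downstream, with log2 fold changes of 1.78 ± 0.43, 1.70 ± 0.41 and 1.65 ± 0.42.

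At 8 weeks most listed flanks were lower in Tg197 cells. Of the 427 flanks, 45 gained and 222 lost signal, or 62.5% together, against a background of 54.0% of all listed regions. Losses made up 52.0% of the flanks and 36.6% of all listed regions, and gains 10.5% and 17.4%. Autosomal gene-body regions were near the flanks, with 48.1% lost and 12.5% gained, whereas intergenic regions had 31.4% and 23.6%. The median log2 fold change was 0.77 among flanks listed as gained and -1.37 among those listed as lost. Libraries of the 2 groups stood apart in 322 flanks (75.4%, against 69.6% of all listed regions). These calls rest on small margins, since 0 flanks passed limma without Tg197 library 1, Tg197 library 3, WT library 1 or WT library 2, where 278, 249, 192 and 183 had an unadjusted p under 0.05. With a pseudocount of 0.1 the count was also 0, with 299 at an unadjusted p under 0.05. Voom on the recovered reads gave 41 gains and 211 losses, and scaling by median ratios gave 92 gains and 139 losses, beside 4504 gains and 3096 losses among all 11975 listed regions under that scaling.

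The largest losses at 8 weeks left few reads in Tg197 libraries. Oxa1l, an insertase of the inner mitochondrial membrane, had 0, 6.92 and 0 in Tg197 libraries, against 32.1, 20.97 and 8.84 in WT libraries in its downstream flank. Irgm2, an interferon-induced GTPase, had 5.30, 6.92 and 0 in Tg197 libraries, against 29.6, 50.2 and 15.5 in WT libraries, and Rab3b, a GTPase of vesicle release, had 7.95, 0 and 11.8 in Tg197 libraries, against 59.2, 35.96 and 19.9 in WT libraries. Each Tg197 library lay below the lowest WT library in all 3 regions, a condition of their being named. The log2 fold changes were -3.27 ± 0.92, -3.00 ± 0.86 and -2.89 ± 0.97. Fmo4, a flavin monooxygenase, Spsb4 and Ubl5 had log2 fold changes of -3.00 ± 0.84, -2.95 ± 0.64 and -2.79 ± 0.60, with adjusted p-values of 0.0428 in each case.

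Among the gains at 8 weeks were the upstream flanks of 2 genes with developmental or signalling roles. Gata4, a zinc-finger transcription factor, had 18.6, 11.1 and 14.7 in Tg197 libraries, against 5.07, 1.5 and 2.21 in WT libraries, a log2 fold change of 2.08 ± 0.50 (adjusted p = 0.0428). Mapk4, an atypical MAP kinase, had 18.6, 11.1 and 14.7 in Tg197 libraries, against 1.69, 7.49 and 0 in WT libraries, a log2 fold change of 2.45 ± 0.78. All Tg197 libraries lay above all WT libraries in both, a condition of their being named. Zfp664 gained signal (1.93 ± 0.58) downstream, and Tpcn2, an ion channel of endolysosomes, Snx6, a sorting nexin, and 2810410L24Rik had log2 fold changes of 1.86 ± 0.60, 1.82 ± 0.42 and, in the stronger of its 2 downstream flanks, 1.70 ± 0.52.

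At 11 weeks gains again outnumbered losses. Of the 260 flanks, 130 gained and 78 lost signal, or 80.0%, against a background of 77.9% of all listed regions. Gains made up 130 of 260 flanks against 49.7% of all listed regions, and losses 30.0% against 28.2%, so flanks were close to the background in both directions. Groups did not overlap in 219 flanks (84.2%, against 83.7%). The median log2 fold change was 1.33 among flanks listed as gained and -0.78 among those listed as lost. Without Tg197 library 1, Tg197 library 3 or WT library 2 no flank passed limma, with 189, 174 and 181 at an unadjusted p under 0.05. Voom gave 116 gains and 74 losses, but scaling by median ratios gave 91 gains and 103 losses. The excess of gains thus depended on the scaling, which is itself set by the listed regions and cannot decide which direction prevails. All 7309 listed regions turned likewise, to 2337 gains and 2830 losses.

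The largest gains at 11 weeks had few reads in WT libraries. Pik3c2b, a class II phosphoinositide kinase, had 17.6, 14.9 and 18.97 in Tg197 libraries, against 6.80, 1.86 and 0 in WT libraries downstream of its start. Shc3, a signalling adaptor, had 12.8, 18.3 and 28.5 in Tg197 libraries, against 2.72, 1.86 and 3.90 in WT libraries, and Mtrr, which restores methionine synthase in the methyl cycle, had 14.4, 12.6 and 18.1 in Tg197 libraries, against 5.44, 2.79 and 0 in WT libraries. In each of these regions the groups were fully separate, as the naming rule required, with log2 fold changes of 2.68 ± 0.74, 2.41 ± 0.50 and 2.45 ± 0.73. Slc28a1, a nucleoside transporter, Ugt2a1, a glucuronosyltransferase, and 4930511I11Rik gained signal (2.43 ± 0.74, 2.33 ± 0.74 and 2.20 ± 0.76).

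Losses at 11 weeks were led by Afg3l1, which encodes a subunit of a mitochondrial protease. Its upstream flank had 0, 14.9 and 7.76 in Tg197 libraries, against 66.6, 40.02 and 56.5 in WT libraries, a log2 fold change of -3.39 ± 0.86 (adjusted p = 0.0219). Arl8a, a GTPase of lysosome transport, had 17.6, 0 and 6.03 in Tg197 libraries, against 40.8, 45.6 and 38.98 in WT libraries downstream. WT libraries exceeded every Tg197 library in both flanks, as the naming rule required. Cd3e, a chain of the T cell receptor complex and a lymphocyte marker, averaged 4.92 ± 2.37 in Tg197 and 18.5 ± 4.02 in WT libraries (SD, n = 3 each). Ppp1r12b, a myosin phosphatase subunit, the glycolytic gene Eno1 and the netrin receptor gene Unc5b had log2 fold changes of -1.82 ± 0.51, -1.63 ± 0.45 and -1.50 ± 0.43.

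After TNF exposure of WT cells, flanks were mainly lower. Of the 688 flanks, 119 gained and 537 lost signal, or 95.3%, against a background of 93.8% of all listed regions. Losses made up 78.1% of the flanks and 64.1% of all listed regions, and gains 17.3% and 29.8%. Autosomal gene-body regions were near the flanks here too, with 73.9% lost and 19.8% gained, whereas intergenic regions had 55.4% and 38.6%. Groups did not overlap in 97.2% of the flanks and 95.8% of all listed regions. The median log2 fold change was 0.81 among flanks listed as gained and -1.38 among those listed as lost. Under scaling by median ratios the split turned to 143 gains and 59 losses, because that scaling raised the median of all regions listed after TNF by 0.87. The corresponding shifts were 0.06, 0.22 and -0.30 at 3, 8 and 11 weeks. All 16898 listed regions turned with the flanks, to 5869 gains and 1183 losses under that scaling. The median flank lay below that of its table after TNF, at -1.24 against -1.08 for all listed regions. After rescaling the values were -0.39 and -0.22. Rescaling divides each library by 1 factor and moves all regions nearly alike, so it cannot test this gap. Gains numbered 57 without TNF-treated library 1 and 62 without library 3, where the lone sample is assumed to vary like the others.

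Both flanks with the largest losses after TNF had no reads in either TNF-treated library. Tdrd12, a gene of the piRNA pathway in the germ line, had 0 and 0 in TNF-treated libraries, against 17.1, 15.2 and 12.3 in WT libraries upstream of its start. Tlx2, a homeobox gene, had 0 and 0 in TNF-treated libraries, against 15.4, 16.8 and 12.3 in WT libraries, also upstream. Set against a floor of 3 reads in each TNF-treated library, these values were at least 4.44-fold and at least 4.42-fold lower than the WT means. Tbxas1, thromboxane synthase, had 1.99 and 0 in TNF-treated libraries, against 20.6, 14.5 and 14.7 in WT libraries, a log2 fold change of -3.33 ± 0.58 (adjusted p = 0.0109). Atp5j, an ATP synthase subunit, Acsl1, which activates long-chain fatty acids, and Plekhg6 had log2 fold changes of -3.27 ± 0.59, -3.16 ± 0.71 and -3.08 ± 0.69.

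Gains after TNF included a flank of an immune enzyme and one of a Notch target. Ido1, an enzyme of tryptophan breakdown induced by interferon, had 10.95 and 13.6 in TNF-treated libraries, against 3.42, 1.52 and 0 in WT libraries in its upstream flank (chr8:25708701-25709300 in mm9). Hes1, a repressor switched on by Notch, had 11.95 and 14.9 in TNF-treated libraries, against 5.99, 3.05 and 0 in WT libraries in its downstream flank. Both TNF-treated libraries exceeded all WT libraries in each region, a condition of their being named. The log2 fold changes were 2.57 ± 0.69 (adjusted p = 0.0109) and 2.23 ± 0.77 (adjusted p = 0.019). Klrg2 showed the largest gain, 2.81 ± 0.73, and Rrad, a small GTPase, had 2.45 ± 0.71. Bhlhe22, a neural transcription factor, and the autophagy gene Atg10 had 2.22 ± 0.76 and 2.19 ± 0.95.

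**Figure D2:**
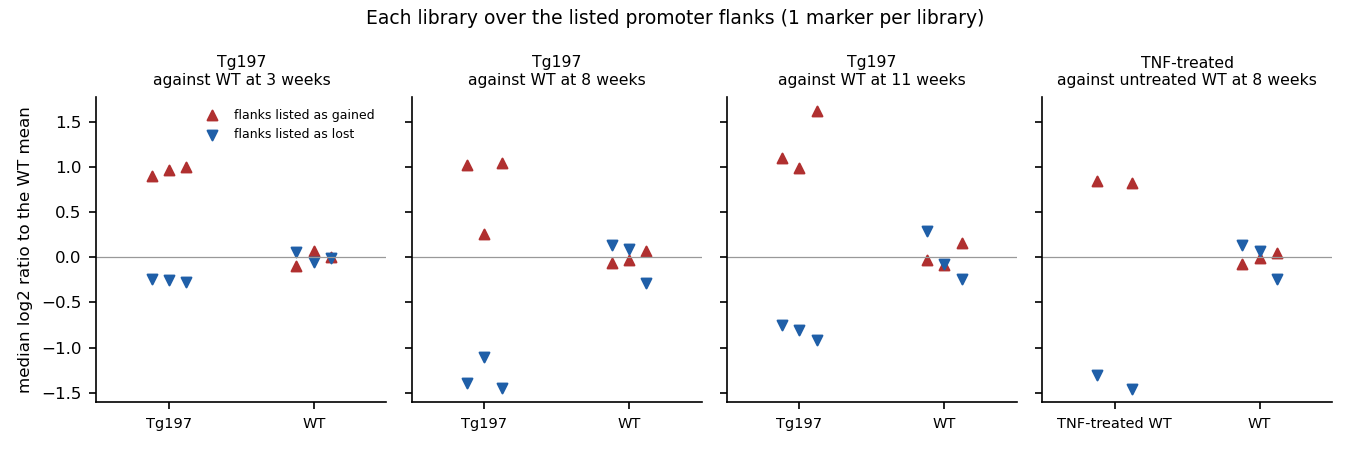
Median log2 ratio of each library to the WT mean, over the flanks listed as gained (triangles up) and as lost (triangles down), with 1 marker per library in each comparison. At 8 weeks the 3 Tg197 libraries sit at 1.02, 0.26 and 1.05 over the gained flanks, and the 2 distinct TNF-treated libraries lie close together.

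The libraries of a group did not follow the listed differences equally. Over the 129 flanks listed as gained at 8 weeks Tg197 libraries 1, 2 and 3 had median log2 ratios of 1.02, 0.26 and 1.05 to the mean of WT, so library 2 stood well below the others. Without that library 95 flanks gained and 221 lost signal, and without WT library 3 the counts were 23 and 183. Over the 298 flanks listed as lost the 3 Tg197 libraries lay at -1.39, -1.11 and -1.45. WT library 3 lay at -0.28 there, the lowest of the WT libraries. At 3 weeks the Tg197 libraries were close together, at 0.90 to 1.00 over gained and at -0.27 to -0.25 over lost flanks. At 11 weeks Tg197 library 3 lay at 1.62 over gained flanks, against 1.10 and 0.99 for libraries 1 and 2. The TNF-treated libraries lay at 0.84 and 0.82 over gained and at -1.31 and -1.45 over lost flanks.

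Upstream and downstream flanks were compared as counts of listed regions, without a test, since regions are not replicates. At 3 weeks 94 of 152 upstream flanks (61.8%) and 148 of 322 downstream flanks (46.0%) were listed as gained, and their median log2 fold changes were 0.80 and -0.08. After TNF the shares were 27.7% of 231 upstream and 15.5% of 457 downstream flanks. The 2 sides were closer at 8 weeks, with 31.6% of 133 upstream and 29.6% of 294 downstream flanks, and at 11 weeks, with 57.7% of 97 and 51.5% of 163. For regions lying wholly between 1 and 3 kb the order at 11 weeks turned, with 47.4% of 57 upstream and 51.3% of 115 downstream flanks, and at 8 weeks both sides were at 29.6%. Of all flanks 51.1%, 30.2%, 53.8% and 19.6% were listed as gained at 3, 8 and 11 weeks and after TNF, against 43.4%, 48.5%, 54.2% and 33.8% of all listed regions. Listed regions within 1 kb of a start had gained shares of 37.7%, 47.8%, 50.7% and 33.9% in the same order. With both sides pooled, flanks exceeded them at 3 and 11 weeks and fell below them at 8 weeks and after TNF. By side, these regions at 3 weeks were listed as gained in 52.8% upstream and 32.2% downstream, so that order was not particular to flanks. The order turned at 8 weeks (34.3% and 54.5%), at 11 weeks (43.6% and 55.1%) and after TNF (25 of 100 and 40.3% of 139). Upstream flanks were thus near upstream regions within 1 kb at 8 weeks and after TNF, and the shortfall of flanks lay downstream. No upstream flank lay inside the annotated transcript by its middle, whereas 95.2% to 97.2% of downstream flanks did in the 4 tables.

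**Figure D3:**
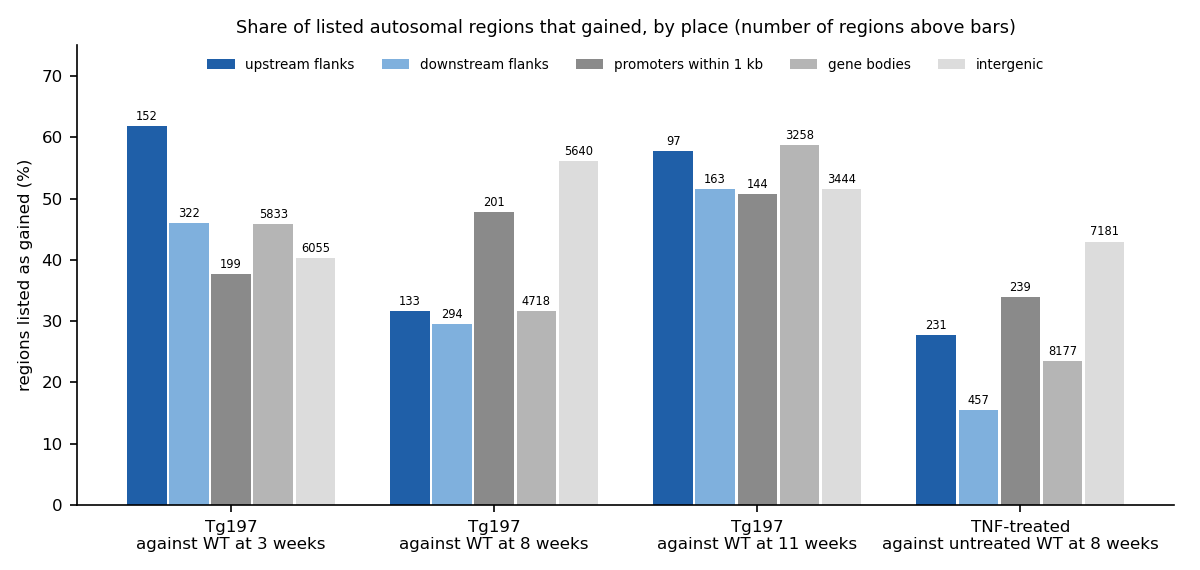
Percentage of listed autosomal regions that were gained, by comparison and by place relative to genes, with the number of regions above each bar. Upstream flanks reach 61.8% at 3 weeks, the tallest bar of that comparison, and downstream flanks after TNF the smallest share, 15.5%.

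Distance within the flank showed local differences. The 30 upstream flanks from 1000 to 1500 bp at 11 weeks were listed as gained in 80.0%, against 48.0%, 41.2% and 52.0% in the next 3 steps of 500 bp, but only 6 of those 30 regions lay wholly between 1 and 3 kb. Upstream flanks at 3 weeks had 69.4%, 59.5%, 52.9% and 64.4% in the same steps outwards. Downstream flanks after TNF had 23.4%, 12.6%, 19.7% and 6.78%, the last of them 8 of 118 regions. At 8 weeks downstream flanks went through 38.0%, 35.0%, 26.0% and 20.5% with growing distance from the start, whereas upstream flanks at that age were gained in 7 of 24, 11 of 44, 10 of 32 and 14 of 33 regions. These steps hold from 17 to 118 regions each in the series named here.

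The direction of a flank went with its read level. At 3 weeks 94.2% of upstream and 87.8% of downstream flanks with a mean value of 20 to 50 were listed as gained, but 13.5% and 12.1% of those with a mean of 150 or more. Upstream flanks had lower levels in that table, with medians of 53.7 in Tg197 and 30.7 in WT libraries, against 145 and 171 downstream. Within a level class the sides were closer than in the whole table, and they also lay near all listed regions of that class, with 90.5% and 9.91%. After TNF few of the low regions were gained, with 15.8% of upstream and 11.9% of downstream flanks gained under a mean of 20. At means of 50 to 150 after TNF 67.7% of 31 upstream and 34.9% of 63 downstream flanks were gained, and at 8 weeks 18 of 24 upstream and 44.4% of 72 downstream flanks. All listed regions of this class were gained in 67.3% after TNF and 73.6% at 8 weeks. The part of the read level in the difference between the sides was not tested.

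**Figure D4:**
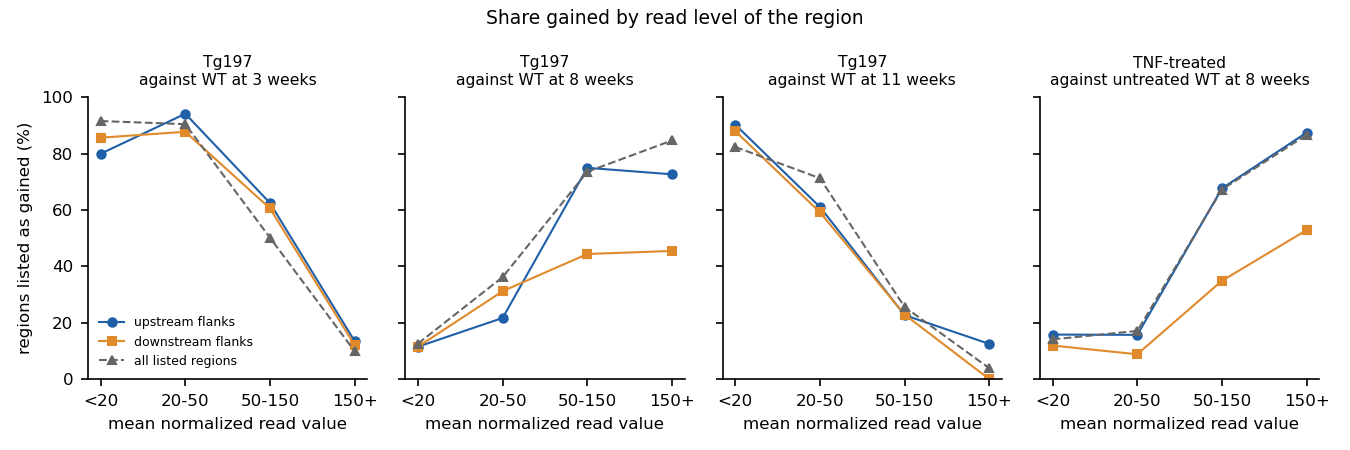
Percentage of regions listed as gained by mean normalized read value (classes under 20, 20 to 50, 50 to 150, and 150 or more) for upstream flanks, downstream flanks and all listed regions. Shares are lowest in the highest class at 3 and 11 weeks and higher from a mean of 50 at 8 weeks and after TNF, where downstream flanks lie below upstream flanks in those classes.

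Only a few genes had listed flanks on both sides in 1 table, namely 3, 4, 3 and 4 genes at 3, 8 and 11 weeks and after TNF. Sides were joined by gene name. By their distances the flanks of Sgca at 8 weeks and of Pde4dip at 11 weeks refer to different starts, so they do not flank 1 start. Map3k1, a kinase upstream of JNK, had 37.8, 41.5 and 45.5 in Tg197 libraries, against 15.02, 26.2 and 23.9 in WT libraries in its upstream flank at 3 weeks. Its downstream flank had 23.8, 28.3 and 27.7 in Tg197 libraries, against 8.45, 15.4 and 14.8 in WT libraries. Every Tg197 library exceeded every WT library on both sides, and the log2 fold changes were 0.94 ± 0.25 and 1.03 ± 0.30 (adjusted p = 0.00323 and 0.00471). Tal2, a helix-loop-helix factor, went opposite ways at that age, with -0.75 ± 0.13 upstream and 1.18 ± 0.34 downstream. Slc17a5, a lysosomal sialic acid transporter, gained signal (0.84 ± 0.25) upstream and had -0.15 ± 0.07 downstream, a loss that did not pass under scaling by median ratios.

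At 8 weeks Zfp108 lost signal on both sides, with -1.40 ± 0.41 upstream and -1.16 ± 0.29 downstream, and Rem2, a small GTPase, gained upstream (1.38 ± 0.47) and lost downstream (-1.27 ± 0.39). The downstream loss of Rem2 did not pass under scaling by median ratios. The flanks of Sgca, a sarcoglycan of muscle, had -2.03 ± 0.76 and -1.20 ± 0.48, and those of Sfi1, upstream and downstream, had 0.76 ± 0.41 and 0.53 ± 0.59. Neither Sgca nor Sfi1 passed the test on either side.

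Il10ra, the ligand-binding receptor for the anti-inflammatory cytokine IL-10, gained on both sides at 11 weeks. Upstream it had 22.3, 18.3 and 25.9 in Tg197 libraries, against 5.44, 11.2 and 11.7 in WT libraries. Downstream it had 59.04, 54.98 and 61.2 in Tg197 libraries, against 28.6, 26.1 and 36.1 in WT libraries. Tg197 libraries lay above all WT libraries on both sides, with log2 fold changes of 1.20 ± 0.39 and 0.94 ± 0.24, of which the downstream one did not pass under scaling by median ratios. Slc12a1, a kidney salt transporter, likewise gained signal (1.72 ± 0.52 and 1.34 ± 0.41). Pde4dip had -0.61 ± 0.27 upstream and 1.64 ± 0.78 downstream, and neither passed.

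After TNF all 4 such genes lost signal on both sides. Mmp25, a membrane-anchored matrix metalloproteinase, had 13.9 and 8.68 in TNF-treated libraries, against 31.7, 41.1 and 24.6 in WT libraries upstream. Its downstream flank had 10.95 and 3.72 in TNF-treated libraries, against 34.3, 20.6 and 25.8 in WT libraries. The TNF-treated libraries lay below all WT libraries on both sides, and the log2 fold changes were -1.45 ± 0.36 and -1.86 ± 0.47 (adjusted p = 0.0109 for both). Fam71b lost signal (-1.45 ± 0.44 and -1.74 ± 0.46), Zfp3 -1.14 ± 0.29 and -1.10 ± 0.31, and Rgma, a repulsive guidance molecule and BMP co-receptor, -0.87 ± 0.21 and -1.20 ± 0.29. None of these 8 losses passed under scaling by median ratios, where Rgma upstream turned to 0.03.

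Flanks could also be set beside other listed regions of their own gene. Where a gene had 1 flank, its gene-body regions had the direction of that flank in 50.4% of 141 regions at 3 weeks, 79.7% of 138 at 8 weeks, 52.5% of 61 at 11 weeks and 79.0% of 290 after TNF. These shares move with the mix of directions in each table and are not read as a difference between tables. Of all flanks 51.1%, 30.2%, 53.8% and 19.6%, and of all gene-body regions 45.8%, 31.6%, 58.8% and 23.5%, were listed as gained at 3, 8 and 11 weeks and after TNF, so both were mostly losses in the tables with the higher shares. Regions within 1 kb of the start of such genes were few, with 4, 13, 6 and 15 in the 4 tables, of which 2, 9, 2 and 7 had the direction of the flank. Genes whose flank and start, joined by gene name, differed in direction were named after their values were seen. Acp5, the tartrate-resistant phosphatase of osteoclasts, had 8.70 ± 1.77 in TNF-treated and 22.3 ± 2.73 in WT libraries (SD, n = 2 and 3) in an upstream flank after TNF (chr9:21941251-21941800 in mm9). Another region (chr9:21934751-21935300) had 12.2 ± 0.32 in TNF-treated against 3.32 ± 2.24 in WT libraries. The log2 fold changes were -1.27 ± 0.37 and 1.79 ± 0.63. These regions lay -1336.5 and 15.5 bp from different annotated starts of Acp5, so no reversal at 1 start is read from them. Hoxd10, a limb patterning gene, had -1.83 ± 0.43 in its downstream flank and 0.93 ± 0.29 at the region within 1 kb. Aox4, an aldehyde oxidase, gained signal (1.93 ± 0.56) downstream at 11 weeks and lost signal in 2 regions closer to the start, with log2 fold changes of -0.68 ± 0.21 and -1.21 ± 0.33. Flank and start fell together in Cnot8, a subunit of the deadenylase complex, at 8 weeks, with log2 fold changes of -2.44 ± 0.46 in the flank and -1.66 ± 0.37 within 1 kb.

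Most flank genes appeared in 1 table. Of the 1644 genes, 1484 had flanks in 1 table, 151 in 2, 8 in 3 and 1 in 4. The 3-week and 8-week Tg197 tables shared 28 genes (6.02% and 6.65% of their genes), while 10 genes (2.15% and 3.94%) were shared at 3 and 11 weeks and 13 (3.09% and 5.12%) at 8 and 11 weeks. The 8-week Tg197 and TNF tables shared 72 genes (17.1% and 10.7%), but both were set against the same WT libraries. Overlapping flanks numbered 17 between 3 and 8 weeks, of which 7 had the same and 10 the opposite direction. Between 8 and 11 weeks 4 of 8 and between 3 and 11 weeks 3 of 4 overlapping flanks had the same direction. Flanks listed after TNF overlapped 20 flanks of the 3-week Tg197 table, 12 with the same and 8 with the opposite direction, and 6 flanks of the 11-week table, all 6 with the opposite direction and 4 of them passing in both. These counts are small and move with the mix of directions, as 53.8% of all flanks were listed as gained at 11 weeks and 19.6% after TNF. They were not set beside overlaps of all listed regions, so no relation between comparisons is read from them.

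Eng, the TGF-beta co-receptor endoglin, which is also an endothelial marker, had an upstream flank in 3 tables. At 3 weeks it had 65.9, 75.4 and 74.2 in Tg197 libraries, against 43.2, 35.3 and 52.3 in WT libraries. At 8 weeks the overlapping region had 13.3, 40.8 and 20.6 in Tg197 libraries, against 55.8, 55.4 and 46.4 in WT libraries. Tg197 libraries were therefore all higher than WT at 3 weeks and all lower at 8 weeks, with log2 fold changes of 0.72 ± 0.18 (adjusted p = 0.00256) and -1.19 ± 0.41 (adjusted p = 0.0464). After TNF it had 31.9 and 19.8 in TNF-treated libraries, against 56.5, 56.4 and 51.6 in WT libraries, a log2 fold change of -1.09 ± 0.25. The 8-week and TNF values share their WT libraries, and neither loss passed under scaling by median ratios.

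Gna13, a G protein subunit, also had opposite directions at 3 and 8 weeks, 2.81 kb upstream of its start and was singled out after its values were seen. At 3 weeks it had 22.7, 33.9 and 56.4 in Tg197 libraries, against 12.2, 20.8 and 14.8 in WT libraries. At 8 weeks it had 2.65, 4.15 and 5.88 in Tg197 libraries, against 21.98, 25.5 and 11.1 in WT libraries. The groups did not overlap at either age, and the log2 fold changes were 1.13 ± 0.32 (adjusted p = 0.00435) and -1.94 ± 0.49 (adjusted p = 0.0428). Tables were normalized separately, so values are compared within an age only.

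**Figure D5:**
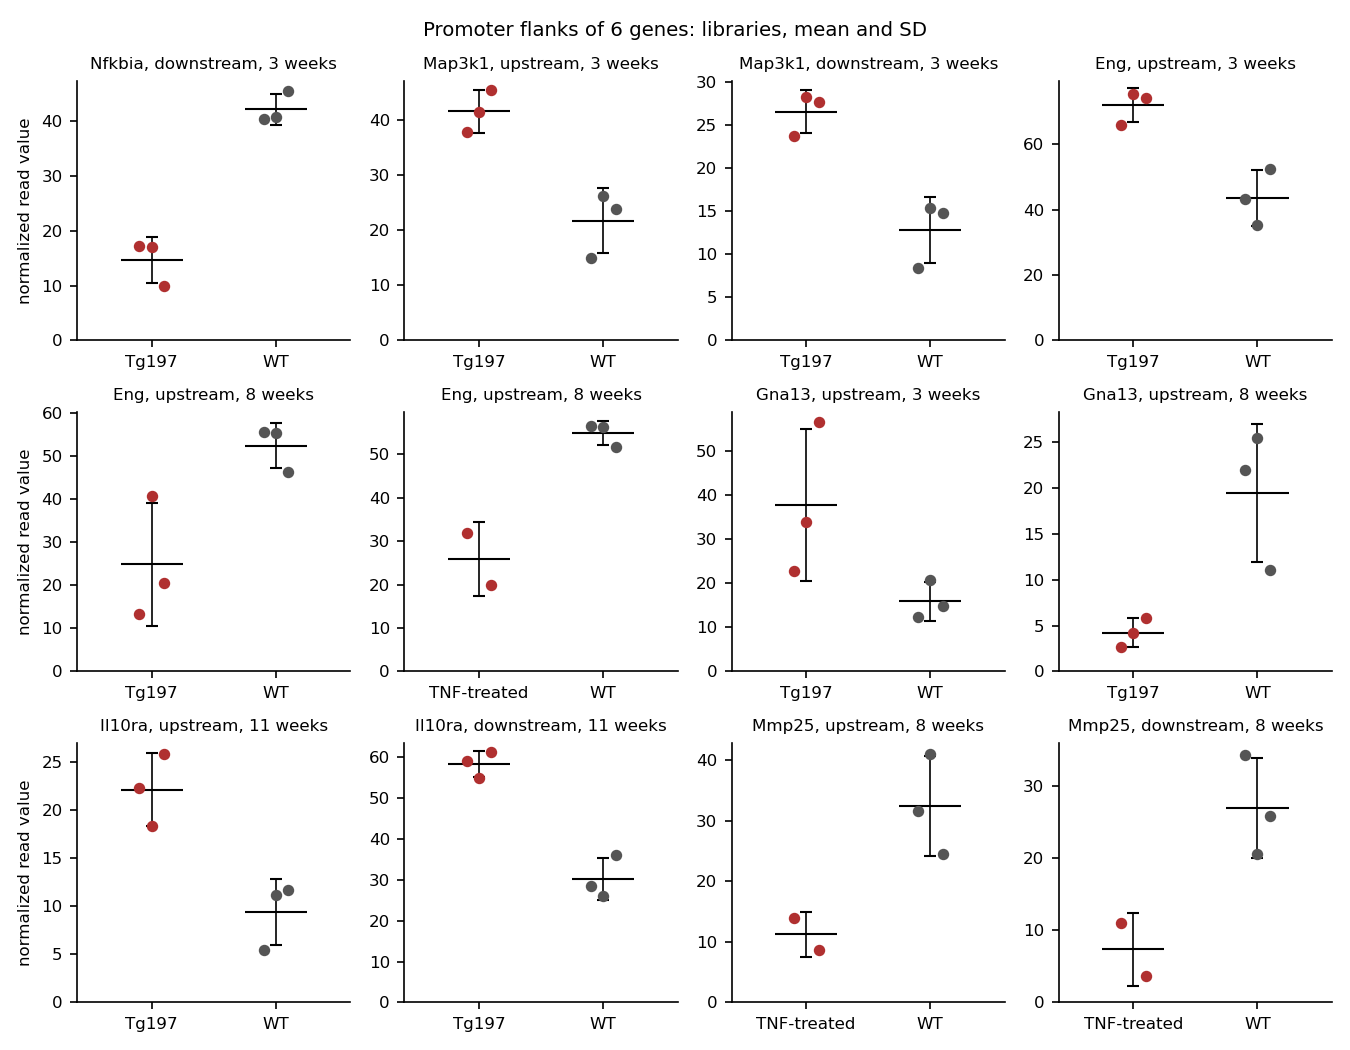
Normalized read values of single libraries (points), with mean and SD (lines), for promoter flanks of 6 genes. Nfkbia and Map3k1 are separated at 3 weeks, Eng and Gna13 are higher in Tg197 at 3 weeks and lower at 8 weeks, Il10ra is higher in Tg197 at 11 weeks on both sides, and Eng and Mmp25 are lower in TNF-treated cells.

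Of the other genes with flanks in 3 tables, Mrps12 had 1 direction throughout, and the 8-week and TNF values of each share their WT libraries. Znrf3, a ubiquitin ligase that restrains Wnt receptors, gained signal (0.68 ± 0.17) upstream at 3 weeks and lost signal (-1.36 ± 0.45 and -1.09 ± 0.32) in a downstream flank at 8 weeks and after TNF. Nrbp2 gained signal (1.00 ± 0.25) upstream at 3 weeks and lost signal (-0.89 ± 0.25 and -1.46 ± 0.39) downstream in those tables. Mrps12, a mitochondrial ribosome protein, lost signal (-0.26 ± 0.08, -1.65 ± 0.42 and -1.51 ± 0.53) in downstream flanks at 3 weeks, 8 weeks and after TNF. Eif4enif1, which carries eIF4E into the nucleus, had 0.63 ± 0.67 at 8 weeks (adjusted p = 0.39), -1.12 ± 0.35 at 11 weeks and -1.96 ± 0.51 after TNF. Fam101a gained signal (1.42 ± 0.35) upstream at 3 weeks and 2.18 ± 0.77 downstream after TNF, and had -1.63 ± 0.64 upstream at 8 weeks (adjusted p = 0.0609). Olfr335, an olfactory receptor gene, had -0.18 ± 0.07 at 3 weeks, 0.41 ± 0.27 at 8 weeks (adjusted p = 0.191) and 0.38 ± 0.12 after TNF. Under scaling by median ratios the losses of Znrf3 and Nrbp2 at 8 weeks and after TNF, those of Mrps12 and Eif4enif1 after TNF and that of Olfr335 at 3 weeks did not pass. Rn4.5s and Snord116 come in many near-identical copies, so reads may be split between copies, and their flanks are uncertain.

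Genes of inflammation came up in small numbers in lists chosen with these data known. The counts of each list pool the 4 tables, in which 28.2% of all flanks gained and 54.7% lost signal, and 32.5% and 46.9% of all listed regions. Under scaling by median ratios these shares were 30.1% and 23.6% of the flanks and 36.8% and 23.9% of all listed regions, so nothing particular to a list is read from its counts. Of 12 flanks of cytokines, chemokines and their receptors 4 gained, 5 lost and 3 did not pass, and of 4 flanks of TNF and NF-kB signalling 2 lost and 2 did not pass. Under scaling by median ratios the cytokine list had 4 gains and 2 losses, and the TNF and NF-kB list 0 gains and 2 losses. Il1a, the cytokine interleukin-1 alpha, had 54, 36.8 and 24.7 in Tg197 libraries, against 11.3, 15.4 and 21.6 in WT libraries in its downstream flank at 3 weeks. Its receptor gene Il1r1 had 56.2, 69.8 and 55.4 in Tg197 libraries, against 127, 101 and 74.98 in WT libraries upstream at that age. Ligand and receptor moved in opposite directions, with log2 fold changes of 1.19 ± 0.31 and -0.71 ± 0.17, and the groups did not overlap in either. After TNF a downstream flank of Il1r1 had -1.46 ± 0.40, and Tradd, the adaptor of the TNF receptor, -1.21 ± 0.35, and neither passed under scaling by median ratios. Tyk2, a kinase of cytokine receptors, had -1.30 ± 0.36 after TNF. At 8 weeks Cxcr4, a chemokine receptor, had 7.95, 2.77 and 5.88 in Tg197 libraries, against 18.6, 19.5 and 11.1 in WT libraries, and Il4ra, the interleukin-4 receptor, averaged 8.44 ± 5.61 in Tg197 and 34.8 ± 19.4 in WT libraries (SD, n = 3 each). Both passed, although the groups overlapped for Il4ra. Nfkb2 had -0.12 ± 0.07 at 3 weeks (adjusted p = 0.133) and Ltb, lymphotoxin beta, -2.15 ± 0.86 at 8 weeks (adjusted p = 0.0624).

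Flanks of interferon genes numbered 4, of which 1 gained and 3 lost, or 1 and 1 under scaling by median ratios. Oasl2, an antiviral gene, had 36.7, 34.9 and 33.6 in Tg197 libraries, against 20.7, 19.9 and 11.4 in WT libraries in an upstream flank at 3 weeks. A downstream flank of the same gene had 18.6, 13.2 and 11.8 in Tg197 libraries, against 38.1, 28.5 and 26.5 in WT libraries at 8 weeks. The groups were separate at both ages, with log2 fold changes of 1.02 ± 0.27 and -1.05 ± 0.34. Ifnar2, a chain of the type I interferon receptor, lost signal (-1.46 ± 0.36) at 8 weeks in Tg197 cells and -1.24 ± 0.37 after TNF in the same region, against the same WT libraries.

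Matrix proteases and their inhibitors had 8 flanks, with 4 gains and 4 losses, or 4 and 1 under scaling by median ratios. At 3 weeks Mmp8, neutrophil collagenase, had 55.1, 51.9 and 47.5 in Tg197 libraries, against 15.02, 23.5 and 28.4 in WT libraries and Mmp9, a gelatinase, averaged 85.5 ± 14.8 in Tg197 and 53.1 ± 4.58 in WT libraries (SD, n = 3 each). Both flanks lay downstream of the start, and the groups were separate in both, with log2 fold changes of 1.21 ± 0.24 and 0.67 ± 0.16 (adjusted p = 0.00173 and 0.00247). Ctsl, a lysosomal cysteine protease, lost signal (-0.61 ± 0.25) at 11 weeks in Tg197 cells and gained signal (0.62 ± 0.18) after TNF in an overlapping region. Extracellular matrix genes had 1 flank, Col18a1, which lost signal (-0.41 ± 0.09) at 3 weeks under both scalings.

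Homeobox and limb patterning factors, a list of 68 genes, had 21 flanks. There were 7 gains, 10 losses and 4 flanks that did not pass, or 8 gains and 5 losses under scaling by median ratios. Shox2, a limb homeobox gene, gained signal (1.88 ± 0.41) at 11 weeks with 34.3, 32.1 and 26.7 in Tg197 libraries, against 10.9, 10.2 and 3.90 in WT libraries. Hoxd11 lost signal (-0.87 ± 0.25) at that age with 39.1, 29.8 and 28.5 in Tg197 libraries, against 59.8, 49.3 and 71.1 in WT libraries. The groups did not overlap in either. At 8 weeks Hoxc4 had 146, 67.1 and 79.4 in Tg197 libraries, against 44.8, 25.5 and 40.9 in WT libraries, and at 3 weeks Hoxb2 gained signal (0.96 ± 0.24) and Tbx2 lost signal (-0.33 ± 0.09). After TNF Alx4 lost signal (-1.72 ± 0.45). Of 9 flanks of Wnt signalling 2 gained, 6 lost and 1 did not pass, among them Wnt1 with -1.42 ± 0.31 and its receptor gene Fzd1 with -1.23 ± 0.35 at 11 weeks. Of 7 flanks of TGF-beta and BMP signalling 2 gained and 5 lost, with Smad9, a BMP effector, at 1.48 ± 0.40 and Ltbp1, which binds latent TGF-beta, at -1.06 ± 0.30 at 11 weeks, and Gdf5, a joint-forming BMP ligand, at -1.88 ± 0.57 after TNF. The Wnt and the TGF-beta and BMP lists each had 2 gains and 2 losses under scaling by median ratios.

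Regulators of chromatin had 6 flanks, with 1 gain and 4 losses. Mbd1, a methyl-CG-binding protein, lost signal (-0.45 ± 0.09) at 3 weeks, and after TNF Mbd3 lost signal (-1.80 ± 0.50) and Kdm4a, a histone demethylase, -1.41 ± 0.31. Among 7 flanks of cell cycle and apoptosis genes 1 gained, 3 lost and 3 did not pass, with the death receptor gene Fas at -1.19 ± 0.27 and Bax at -1.28 ± 0.32 after TNF. Among 7 flanks of imprinted genes 2 lost and 5 did not pass, with Gnas at -0.41 ± 0.13 at 3 weeks and Cdkn1c, a cell cycle inhibitor, at -0.75 ± 0.28 at 11 weeks. Genes at rheumatoid arthritis loci had 6 flanks, with 2 gains and 4 losses, among them Runx1 with 2.65, 6.92 and 1.47 in Tg197 libraries, against 22.8, 20.2 and 11.1 in WT libraries at 8 weeks and Tnfrsf14 with 36.7, 51.9 and 27.7 in Tg197 libraries, against 11.3, 19 and 13.6 in WT libraries at 3 weeks. Under scaling by median ratios the chromatin list had 1 gain and 2 losses, the cell cycle list 2 and 2, the imprinted list 1 and 5, and the arthritis list 1 and 1. No list gene changed sign under it, but none of the losses after TNF named from these lists passed. Nor did the losses of Cxcr4, Oasl2, Pdpn, Znrf3 and Eng at 8 weeks or the gains of Clic5 and Myh1 at 11 weeks.

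Markers of cell types that a culture could hold had few flanks. Synovial fibroblast markers had 3, of which Clic5 gained signal (0.80 ± 0.33) at 11 weeks, Pdpn, the lining marker podoplanin, lost signal (-1.11 ± 0.35) at 8 weeks, and Pdgfrb had -0.18 ± 0.08 at 3 weeks (adjusted p = 0.0511). Macrophage and osteoclast markers had 3, with 1 gain and 2 losses, and lymphocyte markers had 2 losses, Cd3e at 11 weeks and Cd4 with -0.93 ± 0.32 after TNF. Endothelial and mural markers had 4, of which 1 gained and 3 lost, all of them Eng but for Cldn5, a tight junction protein, with 2.65, 5.54 and 0 in Tg197 libraries, against 23.7, 16.5 and 14.4 in WT libraries at 8 weeks. Skeletal muscle markers had 2, with 1 gain in Myh1 (0.56 ± 0.21), and cartilage, bone and fat markers had 3 gains, Sox5 (1.16 ± 0.30), Fabp4 (1.09 ± 0.34) and Mkx (1.57 ± 0.58). Under scaling by median ratios gains and losses were 0 and 0 for the synovial fibroblast list, 1 and 0 for macrophages and osteoclasts, 0 and 1 for lymphocytes, 1 and 1 for endothelial and mural cells, 0 and 0 for muscle, and 3 and 0 for cartilage, bone and fat. The part of other cell types in these flanks was not tested.

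The distance class has its limits at 1 and 3 kb, and regions on either side of them were listed at 3 weeks as follows. Just beyond 1 kb from the start, and so inside the class, stood Lcat, an enzyme of cholesterol esterification, with 76.5 ± 6.35 in Tg197 and 46.5 ± 6.06 in WT libraries. Just short of 1 kb, and so outside the class, stood Olfr1033 with 252 ± 13.6 in Tg197 and 276 ± 9.24 in WT libraries. Just short of 3 kb, inside the class, stood Hes2, with 54.4 ± 12.2 in Tg197 and 28.3 ± 5.35 in WT libraries, and just beyond 3 kb, outside the class, Fermt3, with 27.2 ± 5.12 in Tg197 and 12.03 ± 3.96 in WT libraries (SD, n = 3 each).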

How the data were processed

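MethylCap-seq was applied to 21 cultures of synovial fibroblasts (100 bp paired reads of sonicated DNA of 250 bp on average, per the labels' protocols). The deposited tables are those of the authors and list regions that differed in 4 comparisons, in mm9. Each table holds 1 value per library, reads divided by a size factor, with the authors' group means as signal, log2 fold changes and p-values, per the file headers. BWA, TopHat, TopHat2, Cufflinks and Cuffdiff are named in the submitters' processing notes, without roles. The comparing program is not given in the sources used here. Treatment and Control columns were read as Tg197 or TNF-treated cells and as WT.

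Here log2(value + 1) was tested with limma 3.58.1 (trend, R 4.3.3) in each whole table, with Benjamini-Hochberg adjustment and a threshold of 0.05. Figures and summaries used Python 3.11.15. The script was tested on simulated data. TNF-treated libraries 1 and 2 were identical and entered once. The planned quasi-likelihood count test was not run, because its unit is counts and these values are normalized and packed in cells. Reads were recovered from the steps of the values (at least 99.976% whole within 0.1 of a read) and tested with voom, which was chosen after seeing the data. Alternatives were the pseudocount (0.1, 5), a minimum mean of 10, scaling by median ratios, adjustment over all windows tested, a log2 fold minimum of 1, autosomal regions only, 1 library left out and the definition of a side.

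Genes were named by rule: the 6 largest gains and losses per table with separate groups and a mean of at least 10, genes with both sides, genes in 3 tables or with overlapping flanks, up to 2 genes per list and table, and regions at the distance limits. The flanks and the 18 gene lists were chosen with earlier results of these data known. Values cover counting error and spread between these libraries only.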

Additional observations from a re-analysis of the deposited data

Results flagged for a closer look

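Overlapping flanks of 6 genes were picked because they had opposite directions at 2 ages, with no overlap between Tg197 and WT libraries at either age. That separation is the rule of choice and no further support. Between 3 and 8, 3 and 11, and 8 and 11 weeks 17, 4 and 8 flanks overlapped, of which 7, 3 and 4 had the same direction. Such reversals were not counted among all listed regions. The difference between ages was not tested in any of them, and limma passed both ages in 4 of the 6. The log2 fold change of Tg197 over WT upstream of Gna13 was 1.13 at 3 weeks and -1.94 at 8 weeks. For Eng it was 0.72 at 3 weeks and -1.19 at 8 weeks. BC048502 had -0.88 at 3 weeks and 0.72 at 8 weeks, where it did not pass limma (adjusted p = 0.0507), and Pcnxl3 had 0.32 and -0.69 at those ages. Rpl36al, a ribosomal protein gene, had -0.95 at 8 weeks and 0.92 at 11 weeks. Rn4.5s had 0.42 at 3 weeks and -0.28 at 11 weeks, where it did not pass limma (adjusted p = 0.331), and its near-identical copies make that value uncertain.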

How the results depend on the processing

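With adjustment over all windows tested by the authors, gains and losses were 0 in all 4 tables. With a log2 fold minimum of 1, gains and losses were 122 and 16 at 3 weeks, 29 and 182 at 8 weeks, 96 and 27 at 11 weeks, and 51 and 445 after TNF. All listed regions had 2781 and 320, 961 and 3756, 2656 and 858, and 1148 and 9044 in that order, of 13125, 11975, 7309 and 16898 regions. A pseudocount of 0.1 gave 0 and 0 at 8 weeks. Scaling by median ratios gave 230 and 135, 92 and 139, 91 and 103, and 143 and 59 flanks in the same order of tables. All listed regions had 5434 and 4698, 4504 and 3096, 2337 and 2830, and 5869 and 1183 under that scaling. Without it they had 5291 and 5862, 2087 and 4383, 3633 and 2061, and 5028 and 10827. The turn to gains after TNF was therefore not particular to flanks. Of the flanks that passed, gains made up 63.0%, 39.8%, 46.9% and 70.8% under that scaling, against 56.6%, 16.9%, 62.5% and 18.1% without it. With 1 library left out, gains ranged from 220 to 226 and losses from 144 to 169 at 3 weeks, from 0 to 95 and 0 to 221 at 8 weeks, from 0 to 119 and 0 to 88 at 11 weeks, and from 57 to 117 and 428 to 541 after TNF. Signs turned at 8 weeks for Sfi1 downstream (-0.17 without Tg197 library 1, up to 0.95 with another left out), Eif4enif1 (-0.12 without Tg197 library 1, up to 1.24) and Fzd7 (-0.48 without Tg197 library 3, up to 2.17). After TNF they turned for Rgma upstream (0.026) and for 2 flanks of Rn4.5s (0.77 and 0.74) under median ratios, and for another of its flanks (-0.003 without TNF-treated library 1, up to 0.16). The cause was not tested. The remaining alternatives left the counts within 1.5 times those reported. Upstream and downstream shares stayed within binomial intervals taken over regions. That decides nothing, since regions are not replicates and the alternatives reuse part of the same regions. For regions wholly between 1 and 3 kb the upstream share at 11 weeks fell from 57.7% to 47.4%, below the downstream 51.3%. No paired analysis was possible because the values carry no replicate numbers.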

Other observations

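Flanks of chromosome 11, like flanks at large, were mostly losses in the tables of 8 weeks, and this was noticed after the values were seen. Of its 52 flanks in Tg197 against WT at 8 weeks, 4 gained and 33 lost signal, and of its 68 flanks after TNF, 7 gained and 61 lost. Of all listed regions of that chromosome, 23.8% were listed as gained at 8 weeks and 17.2% after TNF, and both comparisons use the same WT libraries. At 3 weeks 20 of its 32 flanks gained and 6 lost, and at 11 weeks 16 of 23 gained and 6 lost, where 46.0% and 51.1% of all listed regions of that chromosome were listed as gained. The losses were not particular to chromosome 11. All flanks had 45 gains and 222 losses at 8 weeks and 119 and 537 after TNF. Chromosome 9 had 0 gains and 15 losses at 8 weeks, and chromosome 19 had 2 and 26 after TNF. Chromosome 18 was more even, with 1 and 1 at 8 weeks and 9 and 11 after TNF. Of all listed regions 39.7% of chromosome 9 at 8 weeks and 24.6% of chromosome 19 after TNF were listed as gained. For chromosome 18 these shares were 50.8% at 8 weeks and 36.9% after TNF. All flanks had 227 gains and 174 losses at 3 weeks and 130 and 78 at 11 weeks.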
